A study of Rattus norvegicus with 25 samples.

Results

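Oxidative phosphorylation subunits encoded in the nuclear genome were followed in rat tooth and periodontal ligament, the fibrous tissue that anchors a tooth, after molars had been replanted. Members were taken by symbol: Ndufa, Ndufb, Ndufc, Ndufs and Ndufv genes for complex I, Sdha to Sdhd for complex II, Uqcr genes with Cyc1 and Cycs for complex III, Cox4i, Cox5, Cox6, Cox7 and Cox8 genes (without Cox6a2) for complex IV, and Atp5 genes for complex V. This gave 82 of 16881 gene symbols: 36 for complex I, 4 for II, 10 for III, 15 for IV and 17 for V. A low-count filter left 80 of them for testing; Cox8c and the pseudogene Cox6c-ps1, both at or near 0 counts, did not pass.

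The animals are Sprague-Dawley rats whose upper first molar was extracted, left dry for a set time and returned to its socket. The 4 replanted groups differ in drying time and in the day of collection: IR-3 and IR-7 (immediate replantation, 5 min dry, collected on day 3 or 7) and DR-3 and DR-7 (delayed replantation, 60 min dry, day 3 or 7), with 6 libraries each. A single library, NT, is labelled as control for both treatment and time. All 25 carry the age of postnatal day 21 and the tissue label tooth and periodontal ligament; no allele or other agent is named, and nothing in the labels ties a library to its own animal, so p-values measure only how far libraries spread, which may be technical.

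The respiratory chain sits in the inner mitochondrial membrane. Complex I (NADH dehydrogenase) and complex II (succinate dehydrogenase) feed electrons to ubiquinone, complex III passes them to cytochrome c, complex IV (cytochrome c oxidase) hands them to oxygen, and complex V (ATP synthase) uses the resulting proton gradient to make ATP. Several subunits exist as paralogs used in particular tissues or oxygen conditions, such as Cox4i1 and Cox4i2. The symbol rule also takes in a few genes with other duties: Cycs is the mobile carrier cytochrome c, Ndufab1 is the mitochondrial acyl carrier protein, Ndufa4 is now often placed in complex IV, Cox7a2l is a factor of supercomplex assembly, and Atp5sl and Atp5s are listed in RefSeq as Dmac2 and Dmac2l. Cox7a1, Cox6b1 and the subunits encoded in mitochondrial DNA were not analysed here.

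Depth after removal of repeated symbols ran from 5005071 to 8740261 counts over replanted libraries and was 8494013 counts for NT. Levels are given as CPM, counts per 1000000 of the TMM-scaled library; the reads come from the 3′ ends of transcripts, so CPM does not grow with transcript length. Against its label, part of the set was poor in tooth genes: the sum of 12 tooth and periodontal ligament markers was 189803 CPM in NT and 1027 to 125458 CPM in the replanted libraries. Markers of a lipid-producing gland (13 of 15 listed genes were in the files) separated the libraries widely. Their sum was 3118 to 33854 CPM in 7 libraries (IR-3 replicate 6, DR-3 replicates 1, 2, 3, 5 and 6, and DR-7 replicate 5) and 96.5 to 294 CPM in the other 17. Leading genes of that list in the 7 were Thrsp (2078 to 24442 CPM), Mogat1 (300 to 3080 CPM) and Elovl3 (268 to 2667 CPM), while the wax synthases Awat1 and Awat2 were at 0 in all 7. Mgst1, Acsbg1 and Pparg were also higher in all 7 than in the other 17. Soat1 went the other way in IR-3 replicate 6 and DR-3 replicates 1 to 3 (0.984 to 3.64 CPM, against 6.54 to 47.1 CPM in the 17). Elovl4 did not rise in the 7, and Fa2h was 0 in IR-3 replicate 6. Ucp1, which defines brown fat, reached 0.197 CPM at most. Cidea, also on the brown fat list, was 1.14 to 37.8 CPM in the 7 and at most 0.863 CPM in the other 17. In 2 other libraries, IR-3 replicates 3 and 4, 15 nasal gland markers summed to 403623 and 501241 CPM. Because this is bulk RNA, fewer cells of a type and less RNA per cell cannot be told apart. Results are therefore given with all 24 replanted libraries and without 4 (IR-3 replicate 6 and DR-3 replicates 1 to 3) or all 7 of the gland-marked ones. The 4 were chosen with earlier results of these data known, and the 7 after the data had been seen. The 4 also have the highest sums of all members, and all are from day 3. Leaving them out therefore lowers the day 3 level, and is not an independent check.

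Promoters of the members carried sequence motifs known from nuclear genes of respiration. Letters searched on both strands of the 300 bases from 250 before to 50 after each RefSeq start (GRCr8) were GCGCATGC for NRF1, CCGGAAG for GABP (an ETS-type site), AAGGTCA for the ERR receptors and AAGATGGC for YY1. A promoter entry was found for 69 of the 82 members (65 members matched RefSeq by symbol and 17 by synonym). The NRF1 letters were in 14.5% of these 69 and in 3.2% of 19005 protein-coding promoters, the GABP letters in 27.5% and 11.2%, the ERR letters in 15.9% and 3.7%, and the YY1 letters in 21.7% and 3.9%. At least 1 of the 4 was present in 55.1% of member promoters and 20% of all. For 4 genes with values below, the 250 bases upstream of the start are shown. Cox8a and Cox8b are paralogs with different levels across the libraries, Sdhb was called lower at day 7, and Atp5l had the highest mean CPM of complex V and was not called. A link between the letters and these levels was not tested. Each is read 5′ to 3′ toward the gene, with the matches in capitals on whichever strand they lie. Cox8a is at chr1:213833624-213833873 (minus strand) and holds the GABP letters 2 times; its ERR and YY1 letters reach into the 50 bases after the start, beyond this stretch. Cox8b is at chr1:205408274-205408523 (minus strand) and holds none of the 4 in this stretch. Sdhb is at chr5:158547684-158547933 (plus strand) and holds the NRF1 and GABP letters, and Atp5l (Atp5mg in RefSeq) is at chr8:54130408-54130657 (minus strand) and holds the NRF1, GABP and ERR letters.
Cox8a: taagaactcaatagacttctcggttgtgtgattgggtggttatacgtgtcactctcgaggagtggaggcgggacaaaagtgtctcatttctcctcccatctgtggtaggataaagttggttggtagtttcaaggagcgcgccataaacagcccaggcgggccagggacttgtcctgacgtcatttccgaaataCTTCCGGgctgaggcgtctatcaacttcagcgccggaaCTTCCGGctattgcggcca
Cox8b: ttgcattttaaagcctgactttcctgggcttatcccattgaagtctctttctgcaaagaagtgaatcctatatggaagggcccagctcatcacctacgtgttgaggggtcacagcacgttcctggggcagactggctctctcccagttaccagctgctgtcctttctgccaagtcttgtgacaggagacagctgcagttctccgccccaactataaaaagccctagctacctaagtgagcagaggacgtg
Sdhb: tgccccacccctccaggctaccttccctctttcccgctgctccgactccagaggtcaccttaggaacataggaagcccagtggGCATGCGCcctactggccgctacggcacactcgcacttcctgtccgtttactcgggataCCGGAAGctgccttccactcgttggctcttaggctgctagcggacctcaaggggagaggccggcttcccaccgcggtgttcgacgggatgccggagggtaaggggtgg
Atp5l: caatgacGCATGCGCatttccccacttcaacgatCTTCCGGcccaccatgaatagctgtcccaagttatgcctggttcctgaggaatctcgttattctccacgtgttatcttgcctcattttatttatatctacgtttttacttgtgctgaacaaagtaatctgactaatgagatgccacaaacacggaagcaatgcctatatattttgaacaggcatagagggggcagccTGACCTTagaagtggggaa

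Summed over all 82 members, the subunits made up 12374 to 30490 CPM of a replanted library and 12627 CPM of NT. IR-3 ran from 13358 to 30490 CPM (median 14926), DR-3 from 13513 to 26554 (median 19007), IR-7 from 13869 to 15215 (median 14460) and DR-7 from 12374 to 14788 (median 12607). The day 7 groups were narrow: IR-7 lay in the lower part of the IR-3 range, and 4 of the 6 DR-7 libraries lay below every DR-3 library. The high values of day 3 were those of single libraries: IR-3 replicate 6 stood at 2.09 times the mean of the other 5 of its group, and the next were DR-3 replicates 3 (26554 CPM), 1 (22226 CPM), 2 (19062 CPM) and 5 (18951 CPM). Of the 80 tested members, 62 were highest of all 24 libraries in IR-3 replicate 6, 10 in DR-3 replicate 1 and 5 in DR-3 replicate 3. The same was not counted over all tested genes, so these counts are not to be read as particular to the members. IR-3 replicate 6 and DR-3 replicates 1 and 3 are gland-marked libraries. Over the other 17, the member sum spanned 12374 to 15215 CPM, with day 3 (13358 to 15066 CPM, n = 6) inside the day 7 range (12374 to 15215 CPM, n = 11).

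**Figure D1:**
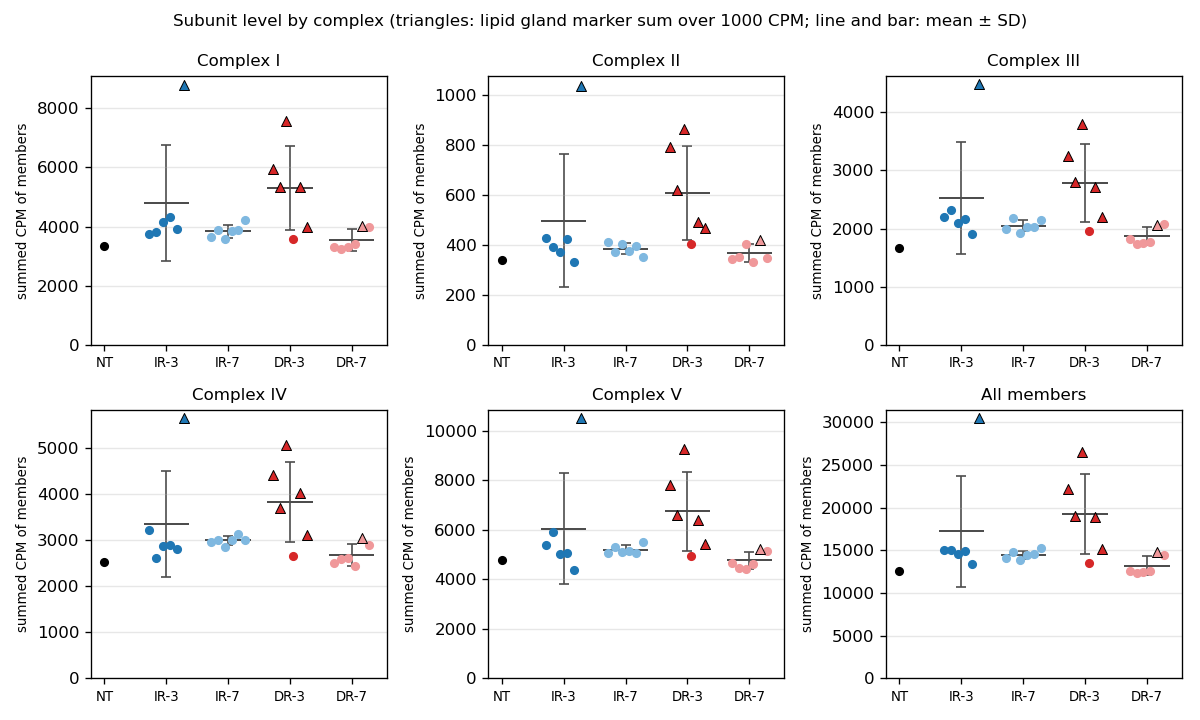
Summed CPM of the members of each complex, and of all members, in each library (points) by group, with mean and SD for the groups of 6. Triangles mark the 7 libraries with a lipid gland marker sum over 1000 CPM; in every panel the highest points are triangles of IR-3 and DR-3.

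The complexes kept the same order of summed level in all 25 libraries. Complex V took 32.8% to 39.3% of the member sum, complex I 24.9% to 29.4%, complex IV 17.3% to 21.6%, complex III 13.2% to 15.4% and complex II 2.31% to 3.58%. The share of complex II was highest in IR-3 replicate 6 and DR-3 replicates 1 to 3, at 3.26% to 3.58%. IR-3 replicate 6 exceeded the mean of the other 5 IR-3 libraries 2.66 times for complex II, 2.20 times for complex I, 2.10 times for complex III, 2.04 times for complex V and 1.96 times for complex IV. Complex II, which is also an enzyme of the tricarboxylic acid cycle, was the complex with the widest relative range, from 331 to 1037 CPM. The member of highest mean level was Ndufa4 in complex I (545 CPM over 24 libraries), Sdhb, the iron-sulfur subunit, in complex II (157 CPM), Uqcrq in complex III (426 CPM), Cox7c in complex IV (596 CPM) and Atp5l, a membrane subunit of the synthase, in complex V (683 CPM).

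**Figure D2:**
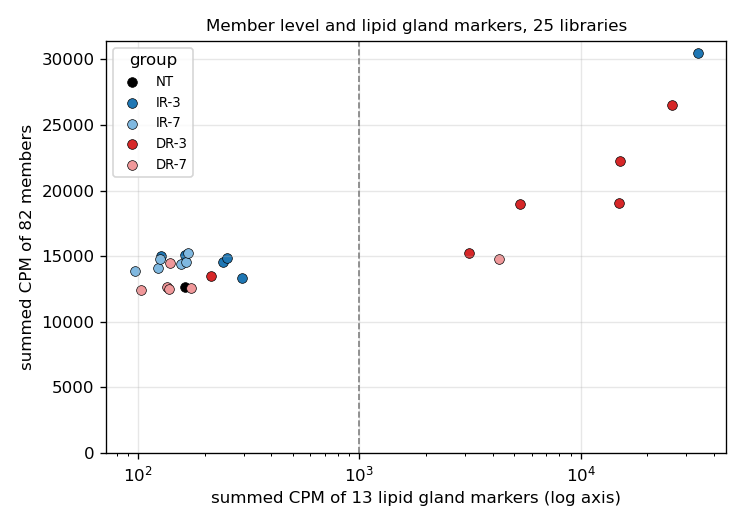
Summed CPM of the 82 members (linear axis) against the summed CPM of the lipid gland markers (log axis) in each of the 25 libraries, coloured by group; the dashed line is 1000 CPM. Libraries left of the line lie between 12374 and 15215 CPM, and the 7 to its right between 14788 and 30490 CPM.

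Spread within a group was measured as the SD of log2 CPM (1 CPM added). The median SD over the 80 members was 0.14 in IR-7 and 0.19 in DR-7, against 0.38 over all tested genes in both. At day 3 it was 0.51 in IR-3 and 0.41 in DR-3, against 0.68 and 0.52. The members and all tested genes were not matched for level, and no test was made of this difference.

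Between day 3 and day 7, averaged over both drying times, 41 of the 80 members were called lower at day 7 and none higher (edgeR quasi-likelihood test, adjusted p under 0.05 over 11492 genes). Of all genes, 11.8% were called lower and 6.94% higher. The member median was -0.47 on the log2 scale against -0.06 for all genes, and 76 of the 80 estimates were negative (54.7% of all genes). By complex, 22 of 36 members fell in complex I, 3 of 4 in II, 5 of 10 in III, 4 of 13 in IV and 7 of 17 in V, with medians of -0.49, -0.57, -0.52, -0.33 and -0.43. The count depended on the gland-marked libraries: without 4 of them 1 member was called lower (0.319% of all genes) at a median of -0.13. Without all 7 the median was -0.04, and replicate 4 was then the only DR-3 library. The lipid gland covariate was the mean log2 CPM of the expressed markers on that list, so each gene counted equally, unlike in the sum. With this covariate 1 member was called lower (0.131% of all genes). With 3 tissue covariates built the same way (muscle, lipid gland and nasal gland) 2 were (0.905% of all genes), at a median of 0.05. Leaving out single libraries also moved the count of 41 by over 1.5 times: it was 20 without DR-3 replicate 3 (6.74% of all genes lower), 26 without DR-3 replicate 2 (7.54%) or IR-3 replicate 6 (7.34%) and 27 without DR-3 replicate 1 (8.67%). It was 25 without DR-7 replicate 2 (7.89%), DR-7 replicate 3 (8.07%) or IR-7 replicate 1 (8.33%). With the replicate number as a block 24 members were called lower (6.35% of all genes); of the members named below, Ndufs1, Ndufa4, Sdhb, Cyc1, Cox5b, Cox6a1 and Atp5b were then not called (edgeR adjusted p from 0.0570 to 0.0731). Marker lists of other cells and tissues moved in the same contrast, and their part in the members' values was not tested beyond the fits above. Lower at day 7 were 7 of the 9 tested lipid gland markers (median -3.02), 3 of 10 nasal gland markers (1 higher, median -3.33), 3 of 17 skeletal muscle markers (median -1.82) and 2 of 4 brown fat markers. Elovl3 is on both the lipid gland and the brown fat list, so these 2 counts are not separate. Higher were 7 of 9 T and NK cell markers (median 2.09), 4 of 9 macrophage markers (median 1.11), 4 of 11 tooth and ligament markers (median 0.94), 2 of 8 gingival epithelium markers and 1 of 8 osteoclast markers. None of the neutrophil, erythroid or ciliated epithelium markers was called.

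**Figure D3:**
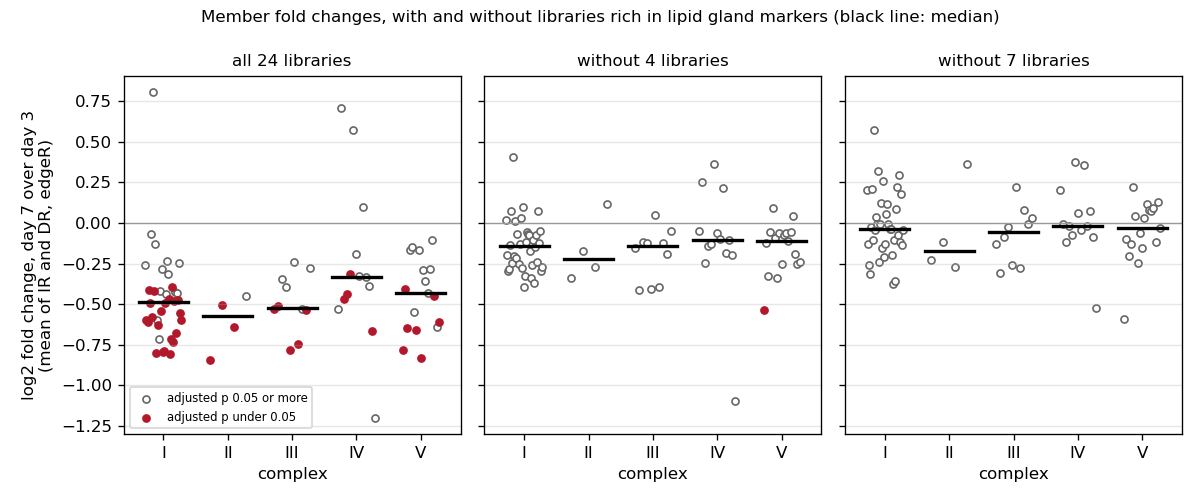
Log2 fold change of each member, day 7 over day 3 averaged over IR and DR, by complex, with all 24 libraries, without 4 and without 7 gland-marked libraries (filled: adjusted p under 0.05 by edgeR; black line: median of the complex). With all libraries the complex medians lie between -0.57 and -0.33, and without the 7 between -0.17 and -0.02.

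In complex I, the core subunits carry the flavin and the iron-sulfur clusters and the accessory subunits surround them. At day 7, 5 of the 7 core members and 17 of the 29 accessory members were called lower. Ndufc2, an accessory membrane subunit, ranged from 122 to 491 CPM in IR-3 (median 179), 138 to 425 in DR-3 (median 240), 120 to 155 in IR-7 (median 145) and 116 to 180 in DR-7 (median 122). Its day 7 libraries overlapped the lower day 3 libraries, and it fell by 0.81 (SE 0.205, edgeR adjusted p = 0.0125). Ndufa7 and Ndufb3, both accessory, fell by 0.80 (SE 0.235, edgeR adjusted p = 0.0230) and 0.79 (SE 0.181, edgeR adjusted p = 0.00912). Without the 7 libraries the estimates were -0.20 for Ndufc2, -0.01 for Ndufa7 and -0.21 for Ndufb3. Among the core members, Ndufs1, which carries iron-sulfur clusters, fell by 0.71 (edgeR adjusted p = 0.0378), while Ndufv1, the NADH-binding flavoprotein, gave -0.24 (SE 0.117, adjusted p = 0.137) and 65.8 to 129 CPM at day 3 against 69.6 to 106 CPM at day 7. Ndufs1 was low throughout, at 2.79 to 21.2 CPM.

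In complex II, 3 of 4 members fell. Sdha, the flavoprotein that oxidises succinate, ran from 49.8 to 142 CPM in IR-3 (median 56.6) and 47.3 to 139 in DR-3 (median 77.6). At day 7 it ran from 36.9 to 54.9 CPM in IR-7 (median 43.6) and 33.2 to 62.1 in DR-7 (median 41.1), with some overlap. It fell by 0.84 (SE 0.203, edgeR adjusted p = 0.0104), and its estimate was -0.23 (adjusted p = 0.633) without the 7 libraries. Sdhc, a membrane anchor, fell by 0.64 (edgeR adjusted p = 0.0103) and Sdhb by 0.50 (edgeR adjusted p = 0.0372). Sdhd, the other anchor, gave -0.45 (SE 0.271, adjusted p = 0.241).

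In complex III, Uqcrb, a small subunit near the quinone site, fell by 0.78 (SE 0.171, edgeR adjusted p = 0.00825). It was 192 to 643 CPM in IR-3 (median 294), 221 to 541 in DR-3 (median 342), 184 to 238 in IR-7 (median 214) and 172 to 219 in DR-7 (median 196), so that DR-3 lay wholly above DR-7 and the IR groups overlapped. Uqcrc2, a core protein, fell by 0.75 and Uqcrh, the hinge protein, by 0.54 (edgeR adjusted p = 0.0155 and 0.0216). Cyc1, cytochrome c1, fell by 0.53 (edgeR adjusted p = 0.0279). Uqcrfs1, the Rieske iron-sulfur protein, had the same estimate of -0.53 with a larger error (SE 0.199, adjusted p = 0.0651). Cycs, the soluble cytochrome c, fell by 0.51 (SE 0.120, edgeR adjusted p = 0.00942); its estimate was -0.41 without 4 libraries (adjusted p = 0.0634) and -0.41 with the 3 tissue covariates, where it was still called (adjusted p = 0.0499), and -0.31 without 7 (adjusted p = 0.512).

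In complex IV, 4 of the 13 tested members fell. Cox8a, a small membrane subunit, was 284 to 806 CPM in IR-3 (median 301), 255 to 628 in DR-3 (median 423), 226 to 315 in IR-7 (median 261) and 228 to 311 in DR-7 (median 246). The groups overlapped, and Cox8a fell by 0.66 (SE 0.183, edgeR adjusted p = 0.0173), with an estimate of -0.09 without the 7 libraries. Cox5a and Cox5b, subunits on the matrix side, fell by 0.47 and 0.44, and Cox6a1 by 0.32 (edgeR adjusted p = 0.0279, 0.0339 and 0.0454). Cox6c (-0.19), Cox7a2 (-0.33), Cox7b (-0.33) and the supercomplex factor Cox7a2l (0.10) were not called.

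Some paralogs stood at opposite ends of the range in the same library. Cox4i1 was highest in IR-3 replicate 6 (582 CPM) and 139 to 252 CPM at day 7, while Cox4i2, the isoform induced in low oxygen, was lowest in that library (0.984 CPM). Cox4i2 ranged from 0.984 to 45.9 CPM in IR-3, 1.96 to 28.5 in DR-3, 12.3 to 27.1 in IR-7 and 12.8 to 34.3 in DR-7. Ndufa4 (1221 CPM) and its paralog Ndufa4l2, also known as a hypoxia-induced gene (0.197 CPM), were likewise at opposite ends in IR-3 replicate 6. For the day 7 to day 3 contrast, Cox4i2 gave 0.71 (SE 0.443, edgeR adjusted p = 0.259) and Ndufa4l2 gave 0.80 (SE 0.414, adjusted p = 0.168), neither called, against -0.53 for Cox4i1 (adjusted p = 0.0837) and a called -0.58 for Ndufa4 (adjusted p = 0.0340). Without the 7 libraries the 4 estimates were -0.01, 0.57, 0.20 and -0.11, none called. The testis-type isoform Cox6b2 was at 0.911 to 9.11 CPM in all replanted libraries and gave 0.57 (adjusted p = 0.165). Ndufa4l2 never exceeded 7.06 CPM, so its differences rest on few reads.

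Cox8b, the form of heart and skeletal muscle, was the most uneven member. It was 0 to 77.4 CPM in 22 of the 24 replanted libraries and 195 and 151 CPM in DR-3 replicates 1 and 5. Those 2 libraries also held the highest skeletal muscle marker sums, 7050 and 9651 CPM, and the muscle isoform Cox6a2 was 261 and 229 CPM in them. The day 7 to day 3 estimate of Cox8b was -1.20 (SE 0.801, edgeR adjusted p = 0.289) and, with the 3 tissue covariates, 0.02. Cox8b at 42.1 and 51.8 CPM in IR-3 replicates 4 and 5 stood beside muscle sums of 47.1 and 34.01 CPM.

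**Figure D4:**
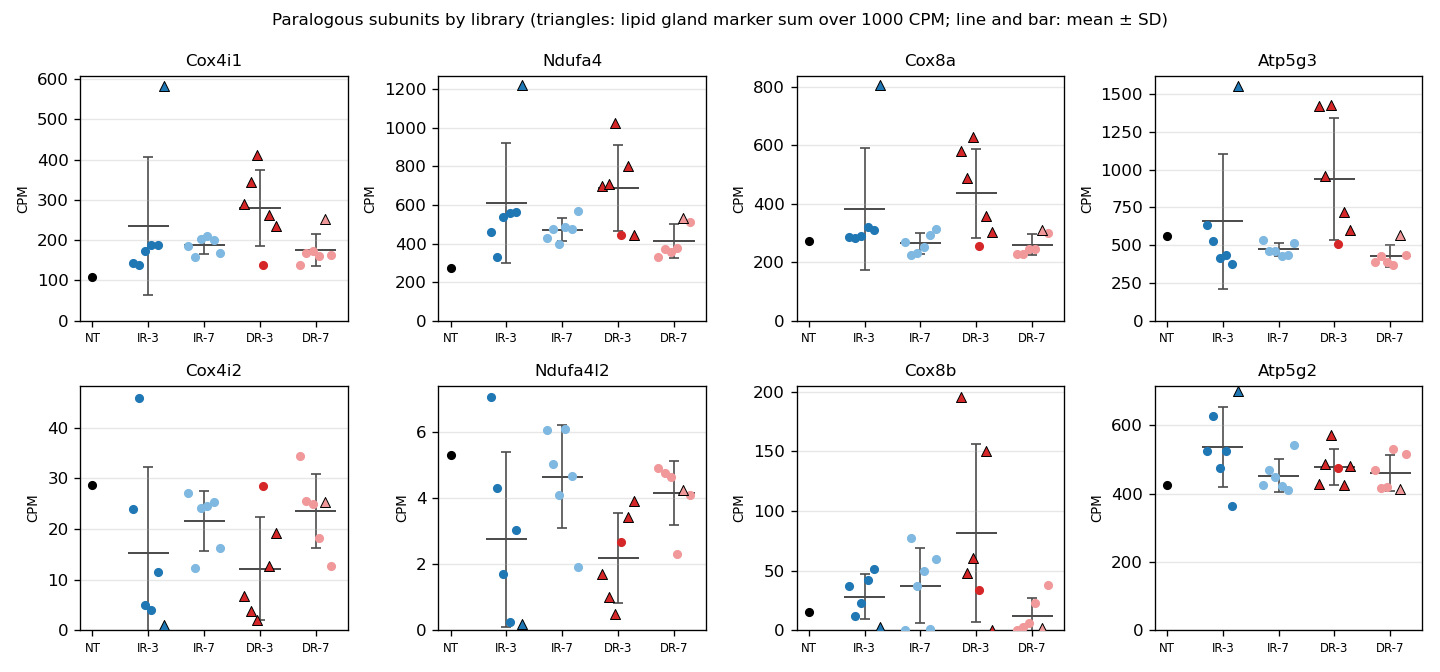
CPM of 4 widely used subunits (upper row) and a paralog of each (lower row) in every library by group, with mean and SD; triangles mark the 7 gland-marked libraries. The triangle of IR-3 is the highest point of its group for Cox4i1, Ndufa4, Cox8a, Atp5g3 and Atp5g2 and the lowest for Cox4i2, Ndufa4l2 and Cox8b; the 5 triangles of DR-3 are spread, and that of DR-7 is highest of its group for Cox4i1, Ndufa4, Cox8a and Atp5g3 but not low for Cox4i2 or Ndufa4l2.

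In complex V, Atp5a1, the alpha subunit of the catalytic F1 head, had the smallest p of all members. It was 118 to 252 CPM in IR-3 (median 174), 126 to 230 in DR-3 (median 174), 98.2 to 121 in IR-7 (median 109) and 90.9 to 108 in DR-7 (median 103). DR-3 lay wholly above DR-7, and in the IR groups only IR-3 replicate 5 (118 CPM) fell within the day 7 range. Atp5a1 fell by 0.78 (SE 0.113, edgeR adjusted p = 0.00139). It was the member that remained called without the 4 libraries (-0.54, adjusted p = 0.00551) and with the lipid gland covariate (-0.56, adjusted p = 0.0334), and 1 of the 2 with 3 tissue covariates (-0.53, adjusted p = 0.0425); without all 7 the estimate was -0.59 (adjusted p = 0.128). Among the 17 low-gland libraries it was 118 to 189 CPM at day 3 (n = 6) and 90.9 to 121 CPM at day 7 (n = 11), the ranges meeting only at IR-3 replicate 5. Atp5b, the catalytic beta subunit of the same head, fell by 0.41 (SE 0.132, edgeR adjusted p = 0.0356) and gave -0.10 without the 7 libraries.

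The c ring, the rotor of the synthase, is encoded by 3 genes for the same mature protein. Atp5g3 was 375 to 1553 CPM in IR-3 (median 482), 505 to 1427 in DR-3 (median 841), 430 to 531 in IR-7 (median 460) and 370 to 571 in DR-7 (median 411), all overlapping. It fell by 0.83 (SE 0.221) and Atp5g1 by 0.66 (SE 0.162; edgeR adjusted p = 0.0154 and 0.0115). Atp5g2 was 364 to 699 CPM at day 3 and 410 to 541 CPM at day 7 and gave -0.17 (SE 0.101, adjusted p = 0.238). The difference between the c-ring genes was not tested; without the 7 libraries they gave -0.16, -0.25 and -0.06.

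Within each drying time the change from day 3 to day 7 had the same sign for most members, but no member passed the threshold. In IR, 71 of 80 estimates were negative (56.5% of all genes) at a median of -0.29 (all genes -0.09). An unadjusted edgeR p under 0.05 was seen for 18 of the 80 members and 2340 of 11492 genes, which are similar shares. No member was called, against 0.0348% of all genes called lower and 0.104% higher. Atp5a1 came nearest (-0.72, edgeR adjusted p = 0.0603). Without IR-3 replicate 6 the IR median was -0.03, with 46 of 80 negative. In DR, 76 were negative (49.9% of all genes) at a median of -0.59 (all genes 0.00). An unadjusted edgeR p under 0.05 was seen for 62 members and 2589 of 11492 genes. No member was called, with 0% of all genes lower and 0.0087% higher. Atp5a1 again came nearest (-0.84, edgeR adjusted p = 0.0590). DESeq2 called 1 member lower in IR (4.34% of all genes) and 30 in DR (6.25%), and limma-voom none in either (0.0087% and 0%). Leaving out IR-3 replicate 6 gave 45 members lower in DR by edgeR (8.81% of all genes), DR-3 replicate 4 gave 17 (2.3%) and DR-3 replicate 6 gave 3 (0.361%). A single member was lower in DR without IR-3 replicate 2 (0.0431% of all genes), IR-3 replicate 5 (0.0517%) or DR-3 replicate 5 (0.0172%). In IR, 1 was lower without IR-3 replicate 1 (1.75% of all genes), 2 (0.818%) or 5 (0.112%) or DR-3 replicate 5 (0.0603%). Members of smallest p in the other complexes in IR were Ndufa10l1 (-0.68), Sdhc (-0.51), Uqcrb (-0.65) and Cox8a (-0.55), with edgeR adjusted p from 0.134 to 0.234. In DR they were Ndufb3 (-1.02), Sdha (-1.04), Cycs (-0.70) and Cox5a (-0.76), with edgeR adjusted p from 0.0802 to 0.0877.

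Without the 7 libraries the medians were -0.02 in IR and -0.06 in DR. Atp5a1 was then called in IR (-0.57, edgeR adjusted p = 0.0495; 0.0632% of all genes lower) and not in DR (-0.61, adjusted p = 1; 0% of all genes lower), where DR-3 replicate 4 was the only day 3 library left and is assumed to vary like the other groups.

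Drying for 60 min rather than 5 min left no member past the threshold. At day 3, 72 of 80 estimates were positive (DR-3 above IR-3; 45.1% of all genes were positive) at a median of 0.19, but none was called, 0 had an unadjusted p under 0.05, and 0% of all genes were called in either direction. DESeq2 and limma-voom also called none (0% of all genes by both), while a limma-voom fit that weights each library by its quality gave 44 members higher (10.5% of all genes). One library mattered: without IR-3 replicate 6 edgeR called 10 members higher (4.52% of all genes) at a median of 0.44. The sign of the median turned when the 7 libraries were left out (-0.13) and with 3 tissue covariates (-0.33). Without the 7, replicate 4 was the only DR-3 library left. Of the 7 gland-marked libraries 5 are DR-3 and 1 is IR-3. The members of smallest p were Ndufv1 (0.27), Sdhb (0.35), Uqcrfs1 (0.58), Cox5a (0.39) and Atp5g3 (0.55), each at an edgeR adjusted p of 0.983.

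At day 7, 68 of 80 members were lower in DR-7 than in IR-7 at a median of -0.10 (50% of all genes were lower), with none called, 0 at an unadjusted p under 0.05 and 0% of all genes called. DESeq2 (0.0261% of all genes higher, 0% lower) and limma-voom (0%) called no member either. The largest estimate, -1.66 for Cox8b (SE 1.15, edgeR adjusted p = 1), came from a gene at 0 to 77.4 CPM in IR-7 and 0 to 37.7 CPM in DR-7. It turned to 0.18 with the muscle covariate and 0.38 with the 3 tissue covariates, and the 17 skeletal muscle markers had a median of -2.52 in this contrast, none called. The others of smallest p were Ndufa2 (-0.18), Sdhd (-0.16), Cycs (-0.19) and Atp5l (-0.19), all at an edgeR adjusted p of 1. The interaction, which subtracts the DR to IR difference of day 3 from that of day 7, had a median of -0.28 and called none in edgeR (0 at an unadjusted p under 0.05; 0% of all genes), DESeq2 (0.0261% of all genes higher, 0.0696% lower) or limma-voom (0%). The sign of the median turned with 3 tissue covariates (0.20), with the lipid gland covariate (0.07) and without the 7 libraries (0.03). The last fit had replicate 4 as its only DR-3 library. Without IR-3 replicate 6 the median was -0.56, 46 members had an unadjusted p under 0.05 and none was called. The share of all genes at that p is not given here, so the 46 are not to be read as particular to the members. With quality weights per library, limma-voom gave 30 members lower (5.07% of all genes). Named members of that contrast were Ndufa2 (-0.34), Sdhb (-0.43), Uqcrfs1 (-0.73), Cox6c (-0.48) and Atp5f1 (-0.63).

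Against the single NT library there is no test. Ratios are log2 of group mean over NT with 5 CPM added to each. The member median was 0.37 for IR-3, 0.56 for DR-3, 0.13 for IR-7 and 0.02 for DR-7, beside 0.11, 0.07, 0.05 and 0.05 for all tested genes. Members past 2-fold were Cox4i1 (1.08), Ndufa4 (1.14) and Ndufv3 (1.01) for IR-3, Cox8b (1.07) for IR-7, and Cox4i1 (1.32), Cox8b (2.09), Ndufa4 (1.31), Ndufv3 (1.03) and Uqcrh (1.02) for DR-3. None was past 2-fold for DR-7, and with these settings none was 2-fold lower in any group. Of all tested genes, 10.3% were past 2-fold higher for IR-3, 4.97% for IR-7, 9.75% for DR-3 and 6.49% for DR-7, and 4.75%, 2.77%, 6.47% and 3.53% were past 2-fold lower. The counts for day 3 depended on the setting: with raw library sizes 0 members were past 2-fold higher for IR-3 and 12 for DR-3, with 20 CPM added 1 and 3 were (and 0 for IR-7), and without the 4 gland-marked libraries 0 and 2 were. With 1 CPM added, and likewise with ribosomal RNA entries removed, 1 member was 2-fold lower for DR-3. Without the 4 libraries the medians were 0.18 for IR-3 and 0.26 for DR-3. NT lay below all 24 replanted libraries for 10 of 80 members (6.05% of all genes) and above all 24 for none (8.99% of all genes). The 10 were Cox4i1, Cox5b, Ndufa2, Ndufa4, Ndufb7, Ndufb9, Ndufv3, Uqcr10, Uqcrh and Uqcrq. Ndufa4 was 274 CPM in NT and 328 CPM in the lowest replanted library, and Cox4i1 was 109 CPM in NT and 139 CPM in the lowest.

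**Figure D5:**
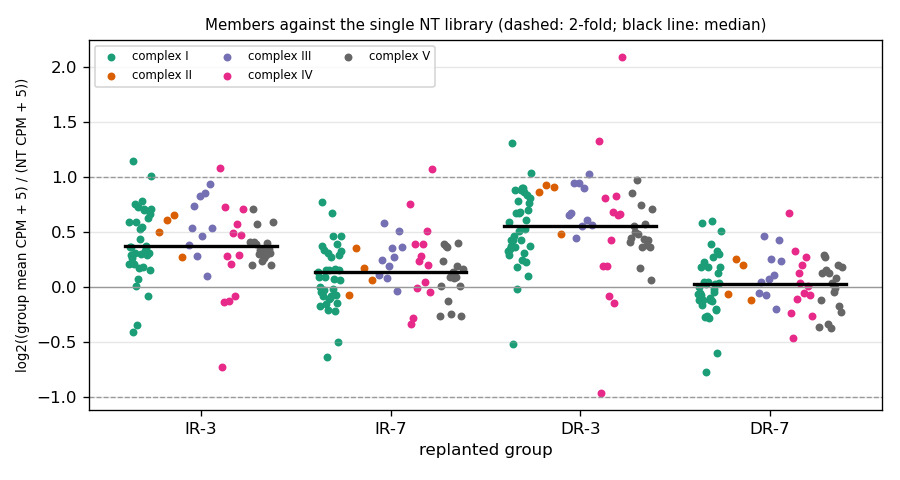
Log2 ratio of group mean CPM to NT CPM, 5 CPM added to each, for the 80 tested members by replanted group and complex; dashed lines mark 2-fold and black lines the medians of 0.37, 0.13, 0.56 and 0.02. NT is 1 library, so the spread shown is between members.

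Genes that work with the complexes were read in the same contrast of day 7 over day 3, where 11.8% of all genes were called lower. Among assembly factors, which build the complexes, 7 of 34 fell and none rose (median -0.39), including Timmdc1 (-0.67) and Acad9 (-1.90) of complex I and Tmem70 (-1.09) of complex V. In the tricarboxylic acid cycle, which supplies NADH and succinate, 6 of 12 fell (median -0.47), among them Sucla2 (-0.55), Suclg1 (-0.64) and Idh3a (-0.88). Of carriers and pores 4 of 12 fell (median -0.50), with the outer membrane channel Vdac1 at -0.61, the pyruvate carrier subunit Mpc2 at -1.69 and the acylcarnitine carrier Slc25a20 at -0.98. Of regulators of mitochondrial biogenesis 2 of 12 fell, Yy1 (-0.54) and Tfam (-0.61), the factor that packages mitochondrial DNA. In glycolysis 1 of 16 fell, Ldhb (-1.53), and 12 of the 16 estimates were positive (45.3% of all genes; median 0.20). Each of the first 9 genes named here had an edgeR adjusted p between 0.00716 and 0.0206; Yy1 was at 0.0173, Tfam at 0.0274 and Ldhb at 0.0376. Without the 4 libraries, and likewise without the 7, no gene of the 5 lists was called; without the 7 the medians were 0.05 for assembly factors, -0.19 for the cycle, -0.02 for carriers, -0.01 for regulators and -0.07 for glycolysis.

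The promoter motifs were also counted in members called and not called at day 7. Over 34 called and 34 uncalled members with a promoter entry, the NRF1 letters were in 11.8% and 14.7%, the GABP letters in 23.5% and 32.4%, the ERR letters in 14.7% and 17.6% and the YY1 letters in 17.6% and 26.5%. By complex, the GABP letters ranged from 18.8% of 32 members in complex I to 50% of 4 in complex II. These shares are descriptions, and a window without the letters says nothing of the factor.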

How the data were processed

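Total RNA of tooth and periodontal ligament (500 ng per library) was made into 3′ end libraries with the Lexogen QuantSeq kit, per the labels' protocols. The authors deposited 1 file of raw read counts per library (17048 entries); Bowtie2, edgeR and the builds rn6 and mm10 are named in the submitters' processing notes. The counting tool, strand setting and other versions were not given in the sources used here. Values of overlapping or closely similar genes, such as Ndufa10 and Ndufa10l1, are therefore uncertain. For a repeated symbol the entry of highest total was kept; no member was repeated. Entries for ribosomal RNA took 9.81% to 34.1% of a replanted library and 2.93% of NT and stayed in the totals.

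Counts of the 24 replanted libraries entered 1 edgeR 4.0.16 quasi-likelihood model in R 4.3.3 (TMM, filterByExpr by group, robust fit, 4 group means, 20 residual degrees of freedom). Benjamini-Hochberg adjustment ran over the 11492 genes kept, and members were read from that table at an adjusted p of 0.05. NT has 1 library and no test. The fitting steps were tested on simulated data. The members, lists and tests were chosen with earlier results of these data known. Named members were, per complex, up to 3 called ones with the largest change in each direction, otherwise that of smallest p, the member of highest mean level, and fixed sets of isoforms and catalytic subunits; for pathway lists, up to 3 of smallest p. Alternatives were DESeq2 1.42.0, limma 3.58.1, other scalings and filters, tissue covariates, a replicate block, libraries left out and, added after the data had been seen, the lipid gland covariate and the fit without 7 libraries. Libraries of the same number deviated together at day 7 (correlation of deviations from the group means 0.20 to 0.75 between IR-7 and DR-7) and not at day 3 (-0.46 to 0.21). Between days the correlations were -0.54 to -0.06 in DR and -0.34 to 0.37 in IR. The labels give the numbers but state no pairing. The block gave each number 1 effect shared by all 24 libraries, so calls under it rest on a pairing seen only at day 7. Without molecular identifiers, reads are not independent molecules.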

Additional observations from a re-analysis of the deposited data

Results flagged for a closer look

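One library lay far from the other 5 of its group, by a gap over 0.625 of the group's range, in 28 of 176 groups of 6 libraries looked at (6 sums and 38 named members in 4 groups). Chance gives about 1 in 20 groups, and the members rise and fall together, so the 176 are not independent. IR-3 replicate 6 accounts for 22 of the 28. Its summed CPM was the highest of IR-3: 8795 for complex I, 1037 for complex II, 4479.6 for complex III, 5665 for complex IV, 10513 for complex V and 30490.4 for all members. Its CPM was also apart for single members, namely 805 for Atp5b, 684 for Atp5f1, 1553 for Atp5g3, 582 for Cox4i1, 266 for Cox7a2, 806 for Cox8a, 322 for Ndufa2, 1221 for Ndufa4, 528 for Ndufa7, 434 for Ndufb3, 491 for Ndufc2, 142 for Sdha, 295 for Sdhc, 643 for Uqcrb, 218 for Uqcrc2 and 819 for Uqcrh. That library had the highest lipid gland marker sum (33854 CPM) and the lowest tooth and ligament marker sum (1027 CPM) of the replanted libraries; their part in these values was not tested.

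The other 6 were single members in DR groups. Atp5l was highest in DR-3 replicate 3 at 937 CPM. Atp5g3 was highest in DR-7 replicate 5 at 570.5 CPM. Atp5l was highest in DR-7 replicate 6 at 709 CPM. Cox4i1 was highest in DR-7 replicate 5 at 252 CPM. Cox7b was highest in DR-7 replicate 5 at 432 CPM. Ndufa4l2 was lowest in DR-7 replicate 4 at 2.31 CPM.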

How the results depend on the processing

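Limits: the labels do not tie libraries to animals, NT is 1 library, 7 of 24 replanted libraries are rich in lipid gland markers with 5 of these in DR-3, and low members such as Ndufa4l2 and Cox6b2 rest on few reads. Fits without all 7 keep only 1 DR-3 library. The count of 41 members lower at day 7 depended on libraries more than on tools: it was 41 with RLE scaling, 39 with upper quartile scaling, 40 without ribosomal RNA entries, 34 without a filter, 49 with DESeq2, 34 with limma-voom (1 higher), 58 with sample quality weights (3 higher), 32 with the muscle covariate, 24 with the replicate block, 2 with 3 tissue covariates (median 0.05), 1 without 4 libraries (median -0.13), 0 without 7 (median -0.04) and 1 with the lipid gland covariate (median -0.01). Except with DESeq2 and sample quality weights, the members lower in these settings were all among the 41. Shares of all genes called stand above for the block, the 3 tissue covariates, the lipid gland covariate and the fit without 4. For the other settings no share is given here, and their counts are not to be read as particular to the members. Leaving out each library in turn gave 20 to 54 lower and 0 higher at medians from -0.52 to -0.33.

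Within IR, members lower at day 7 numbered 1 with upper quartile scaling, DESeq2, without 4 or without 7 libraries, and 10 with sample quality weights (6 higher); the median was -0.05 with those weights, -0.06 with 3 covariates and -0.02 without 4, without 7 and with the lipid gland covariate. Single omissions gave 0 to 1 lower and 0 higher at medians from -0.36 to -0.03. Within DR, 1 was lower with upper quartile scaling and with the DR libraries alone, 30 with DESeq2 and 69 with quality weights (2 higher). The share of all genes called with quality weights is not given here for IR or DR. These weighted counts are not to be read as particular to the members. The DR median was 0.14 with 3 covariates, -0.24 without 4, -0.06 without 7 and 0.01 with the lipid gland covariate. Single omissions gave 0 to 45 lower and 0 higher at medians from -0.69 to -0.44.

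For DR against IR at day 3, quality weights called 44 higher (median 0.48), and the median was -0.33 with 3 covariates, -0.13 without 7 and -0.25 with the lipid gland covariate. Single omissions gave 0 to 10 higher and 0 lower at medians from 0.07 to 0.44. At day 7 single omissions called 0 in either direction at medians from -0.12 to -0.07. The replicate block, fitted over all 24 libraries, called 0 there too. It also called 0 at day 3, within IR, within DR and for the interaction. For the interaction, quality weights called 30 lower (median -0.56), and the median was 0.20 with 3 covariates, 0.03 without 7 and 0.07 with the lipid gland covariate. Single omissions called 0 in either direction at medians from -0.56 to -0.16. Why each setting moved these values was not tested.

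Removal of ribosomal RNA entries from the totals raised the summed CPM of all members to 15880 in NT, 18088 in IR-7, 24717 in DR-3 and 16332 in DR-7. IR-3 was at 21070.2, a move within its SD. The removal makes the totals smaller, and the TMM scaling was computed anew. The parts of these steps in the move were not separated. The medians against NT moved by less than the spread between libraries in the 6 alternatives. Named members changed sign in 42 of the 2234 combinations of member, contrast and alternative. With the 3 tissue covariates these were, on the log2 scale, Ndufv1 -0.14, Sdhb -0.08, Uqcrfs1 -0.40, Cox5a -0.13, Atp5g3 -0.30 for DR against IR at day 3; Cox8b 0.38 for DR against IR at day 7; Ndufb3 0.13 for day 7 over day 3 in DR; Ndufc2 0.02, Ndufa7 0.14, Uqcrh 0.07, Cox8a 0.02, Cox5b 0.03, Cox4i1 0.24, Cox4i2 -0.12, Cox6c 0.04, Cox7a2 0.05, Cox7b 0.10, Cox8b 0.02, Ndufa4 0.17, Ndufv1 0.06, Uqcrfs1 0.14 for day 7 over day 3 averaged; Uqcrfs1 0.30 for the interaction. Without the 7 libraries these were, on the log2 scale, Ndufv1 -0.37, Uqcrfs1 -0.36, Cox5a -0.02 for DR against IR at day 3; Uqcrfs1 0.05 for the interaction; Cox4i1 0.20, Cox4i2 -0.01, Cox6c 0.06, Ndufv1 0.18, Uqcrfs1 0.08 for day 7 over day 3 averaged. With the lipid gland covariate these were, on the log2 scale, Ndufv1 -0.02, Sdhb -0.08, Uqcrfs1 -0.07, Atp5g3 -0.11 for DR against IR at day 3; Ndufa7 0.08, Cox4i1 0.27, Cox6c 0.07, Cox7a2 0.03, Cox7b 0.02, Uqcrfs1 0.00 for day 7 over day 3 averaged. With the muscle covariate these were, on the log2 scale, Cox8b 0.18 for DR against IR at day 7.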

Other observations

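In IR-3 replicate 2, 2 members were far below every other replanted library while the rest of their complexes were not as far below. Other members, such as Cox7b (252 CPM) and Ndufa1 (121 CPM), were also lowest in that library, by a smaller margin. Cox7c, a small subunit of complex IV, was 142 CPM there and 447 to 1087 CPM in the other 23 libraries, and Sdhd, a membrane anchor of complex II, was 22.1 CPM there and 60.1 to 280 CPM elsewhere. Among 1312 genes above 50 CPM in every other replanted library, 26 were under 0.5 times the lowest other library in IR-3 replicate 2, 2 of the 55 members among them. The same count was 40 of 1327 genes in IR-3 replicate 6, with 0 members, and 0 to 2 genes in each of the other 22 libraries. The pattern was noticed after the values had been seen and has no test.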
